A study of Neurospora crassa with 16 samples.

Results

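The genes described here are 7 Neurospora crassa genes that make or remove reactive oxygen species or bypass the standard respiratory chain. They are the catalase genes cat-1 (NCU08791), cat-2 (NCU05770) and cat-3 (NCU00355), the superoxide dismutase gene sod-1 (NCU02133), the NADPH oxidase genes nox-1 (NCU02110) and nox-2 (NCU10775), and the alternative oxidase gene aod-1 (NCU07953). They were chosen by function and name, with earlier results of these data known, and all 7 are among the 9730 genes in the count files. The study concerns this filamentous fungus without LSD1, an enzyme that takes methyl groups off histones, and asked what its loss does to heterochromatin and transcription. Polyadenylated RNA was sequenced from Δlsd1 strain N5555, of mating type a, in which the hygromycin resistance cassette hph replaces lsd1, as 2 libraries. The wild type of the authors' comparison is strain N3752, of mating type A, whose 2 libraries belong to another series, with growth conditions not given in the sources used here, and enter only through the authors' deposited tables. The Δlsd1 material is labelled germinated conidia and was harvested as mycelium after 16 h of shaking at 32 °C in minimal medium with 1.5% sucrose. All Δlsd1 RNA came from 1 strain, and nothing in the labels says whether its libraries came from separate cultures, so their spread may be technical. The remaining 14 samples, of bisulfite sequencing and chromatin immunoprecipitation, were not analysed here.

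Catalases split hydrogen peroxide into water and oxygen, superoxide dismutases turn superoxide into hydrogen peroxide, and NADPH oxidases produce superoxide on purpose as a developmental signal. In Neurospora, CAT-1 is the catalase that accumulates in conidia, the asexual spores, and CAT-3 is the catalase of growing hyphae. CAT-2 is a catalase-peroxidase, an enzyme with both activities. SOD-1 is the copper and zinc superoxide dismutase of the cytosol, NOX-1 is needed for female fertility and normal growth, and NOX-2 for germination of ascospores. The alternative oxidase AOD1 passes electrons from ubiquinol straight to oxygen in mitochondria, and its gene is best known for being induced when the cytochrome pathway is blocked.

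The libraries held 7017726 reads on genes in replicate 1 and 6797672 in replicate 2. For the deleted gene, which the reference table leaves without a symbol and which is known to be NCU09120, 41 and 65 reads were counted, and the authors' deposited table lists a normalised mean of 88.7 in Δlsd1 and 675 in wild type. Transcripts of genes listed for growing hyphae and of genes listed for conidia were both found. These lists do not show which cell types the cultures held. The 7 genes read for growing hyphae (chs-1, gpd-1, act, Bml, pma-1, cpc-2 and tef-1) are mostly housekeeping genes. They summed to 33306 CPM (reads scaled to library size) in replicate 1 and 37765 in replicate 2, of which gpd-1 alone made up 21794 and 26040 CPM. The 8 conidial markers summed to 3991 CPM in replicate 1 and 3482 in replicate 2. Without eas, the hydrophobin gene of the spore coat, their sum was 2641 CPM in replicate 1 and 3144 in replicate 2, so the order of the libraries turned with that 1 gene. Of the conidial markers none was at 0 in both libraries, and con-13 had 1 read in replicate 1 and 0 in replicate 2. The largest difference between the libraries among them was at eas, with 9721 reads in replicate 1 and 2241 in replicate 2. In bulk RNA, fewer cells of a type and less RNA per cell cannot be told apart.

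In Δlsd1 the spore-type catalase gene cat-1 was the most abundant of the 7 and the only one that the authors called higher, while aod-1 was among the 3 least abundant and the only one called lower. The growth-phase catalase gene cat-3, the catalase-peroxidase gene cat-2, sod-1 and both NADPH oxidase genes were in neither table. Every gene in the authors' deposited tables lies past a 2-fold difference, with unadjusted p-values reaching 0.0497, so absence from them does not show an equal level in both strains. The members called were 1 of 7 higher, against a share of 3.13% of all counted genes, and 1 of 7 lower, against 7.76%. These are single genes, and no statement about the 7 as a group rests on them.

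The gene cat-1 (chromosome III, 5111604 to 5114534 on assembly NC12) had 13085 reads in replicate 1 and 9481 in replicate 2. This gave 1818 CPM in replicate 1, with an exact 95% Poisson interval, which covers counting error only, of 1787 to 1849, and 1431 CPM in replicate 2, with an interval of 1402 to 1460. Both libraries placed it near the top of the transcriptome, and its level per kilobase of gene span ranked 116th of all counted genes. Its normalised mean in the authors' deposited table was 18253 in Δlsd1 and 8321 in wild type, which the table gives as 1.13 on the log2 scale (adjusted p = 0.000301). On the scale of the authors' deposited table, replicate 1 stood at 20450 and replicate 2 at 16056, so both Δlsd1 libraries lay above the wild-type mean of 8321. Taken singly, replicate 1 was 1.297 and replicate 2 was 0.95 log2 units above the wild-type mean given in the authors' deposited table, and the value of replicate 2 lies below 2-fold. Among the 305 genes of the authors' deposited table of higher genes, cat-1 had the third highest Δlsd1 mean and ranked 222nd by fold change. Its increase was smaller than the median log2 increase of the authors' deposited table, 1.25, on a transcript far above the median Δlsd1 mean of 430 there.

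The alternative oxidase gene aod-1 (chromosome IV, 1234976 to 1237012) had 301 reads in replicate 1 and 205 in replicate 2, or 41.8 CPM (37.2 to 46.8) and 30.9 CPM (26.8 to 35.5). Its normalised mean in the authors' deposited table was 410 in Δlsd1 and 994 in wild type, or -1.28 as a log2 fold change (adjusted p = 1.93e-08). Both Δlsd1 libraries lay below the wild-type mean, at 472 in replicate 1 and 349 in replicate 2 on the scale of the authors' deposited table. The log2 difference of replicate 1 alone from the wild-type value that the authors' deposited table lists was -1.07, and that of replicate 2 alone was -1.51. Among the 755 genes of the authors' deposited table of lower genes, whose median log2 fold change was -1.41, aod-1 ranked 483rd by fold change and 144th by wild-type mean.

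**Figure D1:**
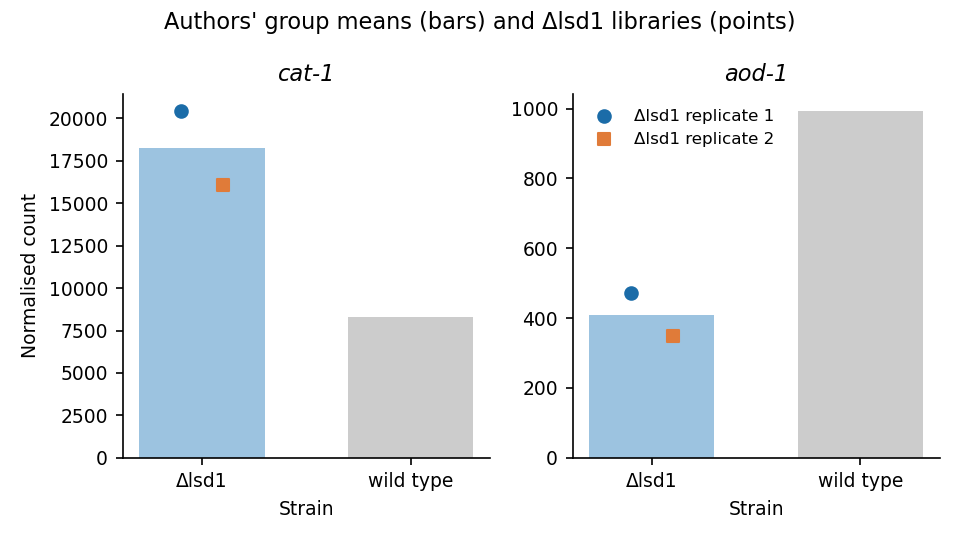
Normalised counts of cat-1 (left) and aod-1 (right) in Δlsd1 and wild type, with bars for the group means of the authors' deposited tables and points for the Δlsd1 libraries on the same scale; vertical axes start at 0 and differ between the panels. Both cat-1 points (20450 and 16056) stand above the wild-type bar at 8321, and both aod-1 points (472 and 349) below the wild-type bar at 994; the spread of the wild-type libraries is not shown because their counts were not used here.

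Because the 2 called genes were called in opposite directions, their ratio had to differ between the strains. Per base of gene span, the authors' deposited means put cat-1 at 30.9 times aod-1 in Δlsd1 and at 5.82 times in wild type, a 5.31-fold wider ratio in Δlsd1. That figure restates the fold changes given above for each gene and is no further result. Mating type and the series of origin differ between the strains as well, so they and the deletion cannot be told apart in these values.

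The growth-phase catalase gene cat-3 (chromosome III, 3561379 to 3564584) had 485 reads in replicate 1 and 183 in replicate 2. Its level was 67.4 CPM (61.5 to 73.7) in replicate 1 and 27.6 CPM (23.8 to 31.9) in replicate 2. The libraries thus disagreed on cat-3 by 2.44-fold, well beyond counting error, and its mean of 47.5 ± 28.1 CPM (SD, n = 2) carries that spread. The catalase-peroxidase gene cat-2 (chromosome VII, 3764986 to 3767954) had 2877 and 1883 reads, or 400 CPM (385 to 415) in replicate 1 and 284 CPM (271 to 297) in replicate 2.

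Spore-type catalase transcripts outnumbered growth-phase catalase transcripts many times over in these Δlsd1 cultures. Per base of gene span, cat-1 stood at 29.5 times cat-3 in replicate 1 (26.95 to 32.4, exact binomial interval) and at 56.7 times in replicate 2 (49.0 to 66.0), a mean log2 ratio of 5.35 ± 0.67 (SD, n = 2). The intervals do not overlap, so the size of this ratio depended on the library while its direction did not. Against aod-1, cat-1 stood at 30.2 times in replicate 1 (26.9 to 34.0) and at 32.1 times in replicate 2 (27.99 to 37.1), with a mean log2 ratio of 4.96 ± 0.06 (SD, n = 2). These intervals overlap, so a difference in this ratio between the libraries was not detectable at this depth. The ratio of cat-3 to aod-1 was 1.02 in replicate 1 (0.885 to 1.19) and 0.567 in replicate 2 (0.462 to 0.696), a mean log2 ratio of -0.39 ± 0.60 (SD, n = 2), so the order of these 2 genes was not settled. Counted over the reads of the 3 catalase genes, cat-1 took 79.6% (Wilson interval 78.9 to 80.2) in replicate 1 and 82.1% (81.4 to 82.8) in replicate 2, and cat-3 took 2.95% (2.70 to 3.22) and 1.58% (1.37 to 1.83). Wild-type values of cat-2 and cat-3 were not used here, so whether these proportions differ between the strains was not tested.

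The superoxide dismutase gene sod-1 (chromosome I, 1135057 to 1136630) had 2487 and 1906 reads, which is 346 CPM (332 to 359) in replicate 1 and 288 CPM (275 to 301) in replicate 2. The NADPH oxidase genes stood apart from each other. Gene nox-2 (chromosome VII, 3043584 to 3047063) had 1484 and 1608 reads, or 206 CPM (196 to 217) in replicate 1 and 243 CPM (231 to 255) in replicate 2. Gene nox-1 (chromosome I, 1253810 to 1257287) had 279 and 293 reads, or 38.8 CPM (34.3 to 43.6) and 44.2 CPM (39.3 to 49.6). Per base of gene span, nox-2 was 5.32 times nox-1 in replicate 1 (4.67 to 6.06) and 5.48 times in replicate 2 (4.84 to 6.23), so the gene known for ascospore germination was the higher of the pair in both libraries.

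Ordered by level per kilobase of gene span, in CPM per kb, the 7 genes ran from cat-1 at 554 ± 93.5 through sod-1 at 201 ± 26.0, cat-2 at 115 ± 27.5 and nox-2 at 64.5 ± 7.40 (SD, n = 2 each). They were followed by aod-1 at 17.9 ± 3.78, cat-3 at 14.8 ± 8.77 and nox-1 at 11.9 ± 1.11 CPM per kb (SD, n = 2 each). From cat-1 down to aod-1, the values of each gene in both libraries lay above those of the next. The range of cat-3, 8.61 to 21.0 CPM per kb, enclosed those of aod-1 and nox-1, so the position of cat-3 in this order was not settled. The lowest member stood above 65.3% of counted genes on this scale, a set that includes 1042 genes with no read. The 7 together took 0.299% of gene reads in replicate 1 and 0.229% in replicate 2.

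**Figure D2:**
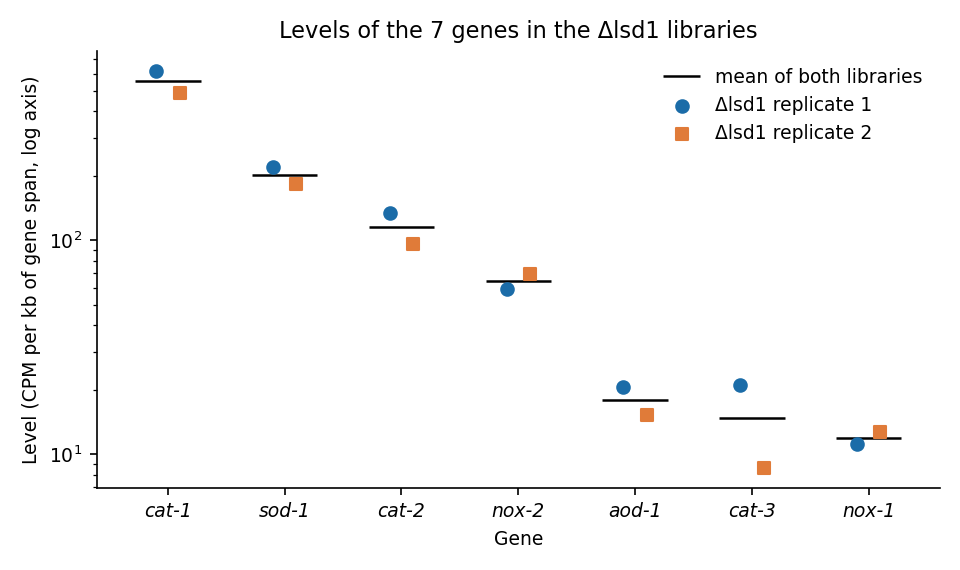
Level of each gene in CPM per kilobase of gene span (log axis) in both Δlsd1 libraries, with the mean as a line. The highest, cat-1, lies at 620 in replicate 1 and 488 in replicate 2, while aod-1, cat-3 and nox-1 lie between 8.61 and 21.0, and cat-3 shows the widest gap between its points.

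By the sign of the difference alone, the genes that remove oxygen species and aod-1 were all higher in replicate 1, and the NADPH oxidase genes were not. By an exact binomial test of each gene's split between the libraries, adjusted over 7319 genes, 5 of 7 members were higher in replicate 1, against 13.1% of the genes tested, and 1 of 7 was higher in replicate 2, against 14.0%. The 5 were cat-3 at a log2 difference of 1.29 (adjusted p = 8.16e-26), cat-2 at 0.49, aod-1 at 0.44 (adjusted p = 0.00459), cat-1 at 0.35 and sod-1 at 0.26. The gene higher in replicate 2 was nox-2 at -0.23 (adjusted p = 5.34e-05), while nox-1 stood at -0.19 and did not pass the exact binomial test (adjusted p = 0.277). This test covers counting error only, compares these libraries and not strains, and calls abundant genes more often. Among the 3050 genes at least as high in CPM as aod-1, 22.2% were called higher in replicate 1 and 25.0% in replicate 2. A difference of at least 2-fold was found at 1 of 7 members, cat-3, against 2.58% of the genes tested, and its difference was larger than that of 99.1% of them. For the other 6 the libraries lay within 1.41-fold of each other. The median absolute log2 difference over the genes tested was 0.21. The share of tested genes with a smaller difference was 45.2% for nox-1, 53.7% for nox-2 and 59.2% for sod-1. It was 70.4% for cat-1, 79.0% for aod-1 and 83.5% for cat-2. Differences of this size are common between these libraries, so no pattern by function is read from their directions. Of the 7 conidial markers tested in the same way, 4 were higher in replicate 1 and 3 in replicate 2, with eas at a 3.99-fold difference, and their part in the differences of the members was not tested.

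**Figure D3:**
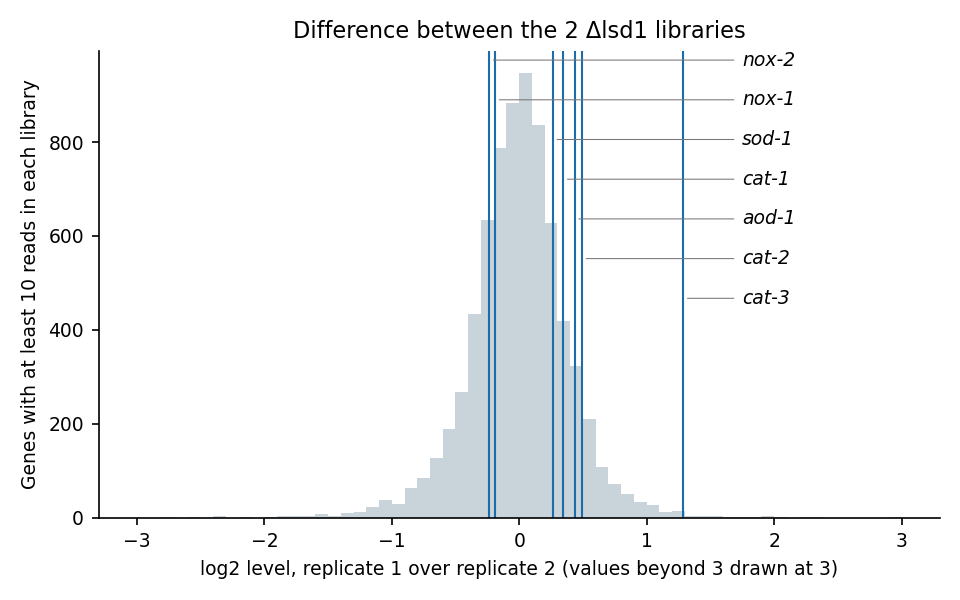
Histogram of the log2 difference between the Δlsd1 libraries, replicate 1 over replicate 2, for genes with at least 10 reads in each, with a line for each of the 7 genes. Members nox-2 and nox-1 lie left of 0 at -0.23 and -0.19, sod-1, cat-1, aod-1 and cat-2 lie between 0.26 and 0.49, and cat-3 stands apart at 1.29.

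Genes that work with the members were read from 5 lists of 42 symbols, of which the reference table matched 25 genes. None of these 25 (0 genes) was higher and 2 of 25 (8.00%) were lower in the authors' deposited tables, close to the 7.76% of all counted genes. Both belong to the 7 genes matched on the list of alternative respiration, and their values stand beside the decrease of aod-1 without a test of the list. The first, NCU08980, had 97 and 65 reads. It is an alternative NAD(P)H dehydrogenase gene that the reference table names nde-2, and other sources may use the symbols nde-2 and ndi-1 differently. The authors' deposited table lists its mean as 132 in Δlsd1 and 390 in wild type, at -1.56 on the log2 scale (adjusted p = 4.40e-08). The second, aod-3, had 30 and 29 reads. For it the authors' deposited table lists 49.6 in Δlsd1 and 118 in wild type, at -1.25 on the log2 scale with an adjusted p of 0.0736. The highest genes of the list per length, nde-1, another alternative NAD(P)H dehydrogenase gene, at 99.1 ± 6.30 CPM and nde-3 at 24.4 ± 0.30 CPM (SD, n = 2), were in neither table. The transcription factor genes aod-2 and aod-5, which are required for induction of aod-1, were in neither table as well, with 30 and 24 reads for aod-2 and 251 and 247 reads for aod-5.

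The remaining lists held no gene in the authors' deposited tables. On the list of superoxide and peroxide defence (3 genes matched) the highest per length were sod-2, the mitochondrial manganese superoxide dismutase gene, at 294 ± 40.3 CPM and cys-9, the thioredoxin reductase gene, at 16.8 ± 2.60 CPM (SD, n = 2). Among NADPH oxidase partners (3 genes) these were nor-1, the gene of the oxidase regulator, at 401 ± 44.3 CPM and rac-1, a small GTPase gene, at 108 ± 5.15 CPM (SD, n = 2). Like nox-2, nor-1 was higher in replicate 2, by 0.23 on the log2 scale (exact binomial test, adjusted p = 7.25e-08). By that test 2 of the 3 partners were higher in replicate 2, against 14.0% of the genes tested. The remaining partner, rac-1, leaned to replicate 1 by 0.097 and did not pass (exact binomial test, adjusted p = 0.386). Gene sod-2 was higher in replicate 1, as sod-1 was, by 0.28 (exact binomial test, adjusted p = 9.07e-09). The differences of nor-1 and sod-2 lie near the median absolute log2 difference of 0.21 over the genes tested, so no pattern by function is read from their directions. For the standard respiratory chain (4 genes) the highest were cya-4, a cytochrome oxidase subunit gene, at 225 ± 32.1 CPM and fes-1, the Rieske protein gene of complex III, at 76.3 ± 23.0 CPM (SD, n = 2). In the stress signalling list (8 genes) the highest per length were msn-1 at 515 ± 81.0 CPM and asl-1, a gene for an ATF/CREB-type transcription factor acting below the kinase OS-2, at 188 ± 1.77 CPM (SD, n = 2). In CPM without length, another gene of this list stood above asl-1. Over all 25 genes, 6 (24.0%) were higher in replicate 1 and 5 (20.0%) in replicate 2 by the exact binomial test. These shares lie above the 13.1% and 14.0% over all genes tested. They cannot be set against the 22.2% and 25.0% among genes at least as high as aod-1. Several list genes, such as cat-4 at 5.78 CPM and aod-2 at 3.89 CPM, lie below aod-1. The shares were thus not matched for level, and nothing is read from them.

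Because cat-1 is a catalase of spores, the conidial markers were set beside its increase. Of 8 markers, 2 were higher and 1 lower in the authors' deposited tables, against 3.13% and 7.76% of all counted genes, and with so few genes nothing is read from these counts. The light- and development-induced gene con-10 averaged 343 in Δlsd1 and 1153 in wild type by the authors' deposited table, or -1.75 as a log2 fold change (adjusted p = 8.70e-15). In contrast csp-2, a conidial separation gene, averaged 3347 in Δlsd1 and 1611 in wild type by the authors' deposited table, or 1.05 on the log2 scale (adjusted p = 4.64e-07). The third, con-6, stood at 116 in Δlsd1 and 43.8 in wild type by the authors' deposited table, at a log2 fold change of 1.41 and an adjusted p of 0.162. The other 5 markers, con-8, con-13, eas, fl and csp-1, were in neither table, and their wild-type levels were not used here. Markers of conidia thus went in both directions beside cat-1, and their part in its increase was not tested.

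**Figure D4:**
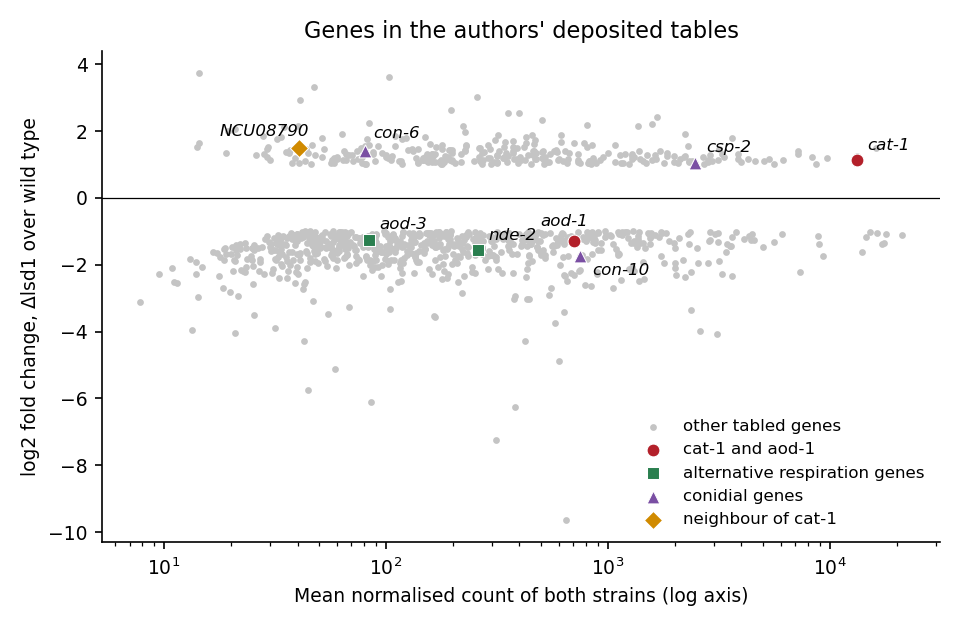
Log2 fold change, Δlsd1 over wild type, against the mean normalised count of both strains (log axis) for all 1060 genes of the authors' deposited tables, with named genes in colour. At a log2 fold change of 1.13, cat-1 is the most abundant coloured gene, and aod-1 (-1.28) lies among lower genes together with nde-2 (-1.56) and aod-3 (-1.25).

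No member overlapped another annotated gene. The closest neighbouring genes lie 76 bp from cat-3 and 179 bp from nox-2. Whether reads running past the annotated ends of neighbours entered the counts of members was not tested. Of the 14 genes directly beside a member, 1 was called higher and 0 lower, against 3.13% and 7.76% of all counted genes, so a single call among them is no result about the neighbours. That gene, NCU08790, lies 873 bp beyond the cat-1 span and had 42 and 30 reads. The authors' deposited table gave it 59.8 in Δlsd1 and 21.4 in wild type, with a log2 fold change of 1.48 (adjusted p = 0.0168). On the other side of cat-1, NCU08792 was in neither table. The neighbours of aod-1, pod-1 and NCU07952, were in neither table.

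The study also deposited 250 regions; how and on which samples they were called is not stated in the labels. None of the 7 genes overlapped a region, against 2.43% of all genes placed on the chromosomes, but 2 of 7, the genes cat-2 and cat-3, lay within 1 kb of one, against 3.90%. The region beside cat-2 (chromosome VII, 3768415 to 3771454) begins 460 bp past the end of the gene span and covers the neighbouring gene NCU05771. The region beside cat-3 (chromosome III, 3560087 to 3560666) is 580 bp long, ends 712 bp before the gene span and overlaps no gene. Neither catalase gene is in the authors' deposited tables. The 2 called genes lay farther off, cat-1 at 37.7 kb and aod-1 at 37.99 kb from the nearest region, against a median of 65.5 kb over all genes, and nox-1, sod-1 and nox-2 at 19.5, 58.5 and 77.4 kb.

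**Figure D5:**
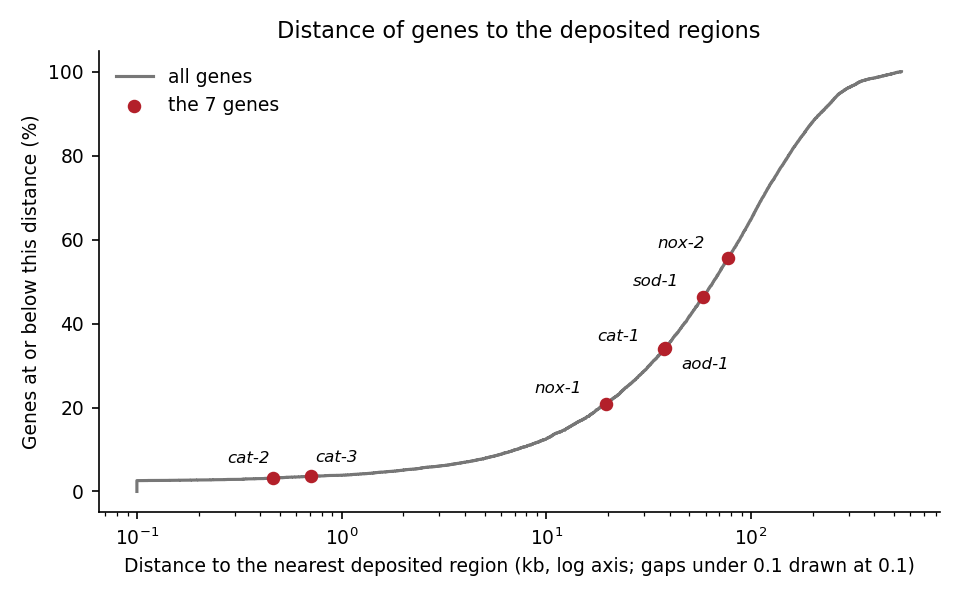
Cumulative share of all genes by distance from the gene span to the nearest deposited region (kb, log axis), with the 7 genes as points. Genes cat-2 (0.460 kb) and cat-3 (0.712 kb) lie at the low end, and the other members between 19.5 and 77.4 kb.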

How the data were processed

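The deposited count files hold raw read counts per gene for both Δlsd1 RNA-seq libraries prepared with a stranded kit for mRNA, as the labels' protocols state. The submitters' processing notes name Bowtie2, DESeq2 and deepTools; the sources used here do not give versions, the build of the alignment, the counting program or its strand setting. Rows that name no gene were left out: in replicates 1 and 2 these held 12.3% and 12.7% without a feature, 3.74% and 3.38% not unique, and 0.117% and 0.0879% ambiguous. Per the file headers, the tables deposited by the authors list group means of normalised counts (signal), log2 fold changes, p-values and adjusted p-values. The deposited region list holds positions only (other values); its supercontigs were matched to chromosomes I to VII by number.

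Levels are CPM with TMM factors from edgeR, computed on the 7319 genes that reach 10 counts in both libraries. Poisson, Wilson and exact binomial (Clopper-Pearson) intervals are at 95% and cover counting error only. Calls of the exact binomial test are at an adjusted p under 0.05 (Benjamini-Hochberg). No model between strains was fitted, since wild-type counts were not used here. The Δlsd1 means of all 1060 tabled genes were recovered as the mean of the count plus 1 over size factors of 0.640 and 0.591 (largest relative error 4.87e-15), which settles the direction. Gene span includes introns, and symbols, spans and coordinates come from the RefSeq table of assembly NC12, which matched 9729 of 9730 genes. Members, lists and tests were chosen with earlier results of these data known. Named are all members, list genes in a deposited table, otherwise the 2 highest per length of each list, and tabled neighbours; aod-2, aod-5, NCU08792, pod-1 and NCU07952 fall outside this rule and were named, after their values were seen, for their role or place beside members. The split test and the recovery of size factors were tested on simulated data. For the split test, unchanged genes in the simulated libraries varied by counting error only. Between the real libraries, the common dispersion from edgeR gave a coefficient of variation of 15.3% beyond counting error. The simulation therefore does not show how often the split test calls genes in libraries with such a spread. Fits used edgeR 4.0.16 and, for alternative size factors, DESeq2 1.42.0 under R 4.3.3. Tests ran in scipy 1.17.1 under Python 3.11.15, and figures in matplotlib 3.10.9.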

Additional observations from a re-analysis of the deposited data

How the results depend on the processing

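Of 54 values recomputed without leaving out a library, 50 kept their direction and stayed within the replicate spread, their side of the threshold or 1.5 times the count. Most of the 54 only rescaled the same 2 libraries by similar factors and could hardly change, so that number is no measure of robustness. The changes came from the settings on gene length, adjusted p and distance to a region. With 2 libraries, leaving 1 out cannot move a mean beyond its SD, so the 24 such values say nothing about stability; cat-3 lay between 27.6 and 67.4 CPM, and the log2 fold change of cat-1 over the wild-type value that the authors' deposited table lists between 0.95 and 1.297. Without correction for length, the log2 ratio of cat-1 to aod-1 was 5.49 in place of 4.96, and that of cat-3 to aod-1 was 0.26 in place of -0.39. Leaving out a library moved the log2 ratio of cat-3 to aod-1 between -0.82 (replicate 2 alone) and 0.034 (replicate 1 alone). At an adjusted p under 0.05, 1 related gene, nde-2, was called in place of 2, and both called members remained. Within 1 kb of a region lay 2 members in place of 0. The share of calls among genes at least as high as aod-1 and the marker sums without eas or gpd-1 were computed after seeing the data. Coding lengths were not run, since no protein table was given. No paired analysis was possible because only 1 group has count files. With 2 libraries of 1 strain, a spread rests on a single difference, and cat-3 is the member it limits most.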

Other observations

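Outside the 7 genes, 2 further genes of the lists are given for their difference between the Δlsd1 libraries, and both are named after their values were seen. The cytochrome c gene cyc-1 had 184 and 72 reads in replicates 1 and 2, which is a 2.35-fold difference. A difference of at least 2-fold was found at 2.58% of the genes tested. The catalase gene cat-4 had 55 and 26 reads, a 1.95-fold difference (exact binomial test, adjusted p = 0.0220), while cys-9 of the same list, with 134 and 99 reads, did not pass (exact binomial test, adjusted p = 0.243). By the exact binomial test, 13.1% of all genes tested were higher in replicate 1.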
